A study of Mus musculus with 6 samples.

Results

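Transcripts of the constitutive proteasome were examined in BV2 cells, a mouse microglial cell line. The genes were taken by name: protein-coding genes of the count table whose symbol begins with Psma, Psmb, Psmc or Psmd and a digit, leaving out the interferon-inducible catalytic genes Psmb8, Psmb9 and Psmb10. This gave 37 of 54532 genes. They comprise 16 genes of the core particle, 17 of the regulatory particle, 3 chaperones that assemble its base (Psmd5, Psmd9, Psmd10), and Psmc3ip, whose name matches but whose product is a meiotic recombination factor and no proteasome subunit. RNA was sequenced from 3 libraries labelled SMEK1 knockdown and 3 labelled WT, in both groups from BV2 cells grown in serum-containing medium with no labelled stimulus. SMEK1, listed in the table as Ppp4r3a, is a regulatory subunit of protein phosphatase 4. The sample labels call the second group WT, while the series' design text describes both as derived by knockdown. The construct used against SMEK1, any control construct in the WT cells, and whether replicate libraries stem from separate cultures were not given in the sources used here. P-values thus measure the spread between these libraries, which may be technical.

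The proteasome degrades proteins marked with ubiquitin. Its core particle is a barrel of stacked rings, in which outer rings of alpha subunits gate the entrance and inner rings of beta subunits carry the caspase-like, trypsin-like and chymotrypsin-like active sites. The regulatory particle caps the barrel: the ATPases of its base unfold substrates, its non-ATPase base subunits bind ubiquitin and shuttle factors, and its lid holds the deubiquitinase that removes the ubiquitin chain. Microglia, the resident macrophages of the brain, can exchange the catalytic beta subunits for interferon-inducible ones, which changes the peptides the core produces.

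Each knockdown library held 18627425 to 21131557 counts and each WT library 18036591 to 18708438 counts. A single count was worth 0.0444 to 0.0597 CPM, the depth-scaled count, here with TMM scaling between libraries. Ppp4r3a averaged 4.06 ± 1.47 CPM in knockdown libraries and 15.6 ± 2.29 CPM in WT libraries (SD, n = 3 each), a log2 fold change of -1.94 with an adjusted p of 8.22e-05 by edgeR's quasi-likelihood test. By the same test the related gene Ppp4r3b was also called lower (log2 fold change -0.74, adjusted p = 0.0179). Ppp4c, the catalytic subunit, was not called (-0.18, adjusted p = 0.102). Of 8 microglial markers 1 was higher and 5 were lower in the knockdown, where 20.5% and 19.6% of all tested genes were. The summed level of these markers was 3223 to 3515 CPM in knockdown libraries and 3732 to 4097 CPM in WT libraries. Summed markers of neurons (1.16 to 2.25 CPM in knockdown libraries, 4.18 to 5.00 CPM in WT libraries), astrocytes (0.226 to 0.533 CPM and 0.118 to 0.478 CPM), oligodendrocytes (7.15 to 7.26 CPM and 2.53 to 2.81 CPM) and fibroblasts (0.0444 to 0.105 CPM and 0 to 0.0540 CPM) were low. Snap25, Syt1, Aqp4, Aldh1l1, Mog, Col1a2, Dcn and Pdgfra had 0 counts in every library, while Mbp was called higher and Syn1 lower in the knockdown. These markers moved with the groups, and their part in the results below was not tested. In bulk RNA, fewer cells of a kind and less RNA per cell cannot be told apart.

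Some proteasome genes were called higher and some lower, and most were not called. Of the 37 genes 35 were expressed enough to test. Both genes that were not, Psma8 (the testis form of an alpha subunit) and Psmb11 (the thymus form of the chymotrypsin-like subunit), had 0 counts in every library. At an adjusted p under 0.05 (Benjamini-Hochberg over all 12269 genes tested, as for every adjusted p below), 8 genes were higher in the knockdown, where 20.5% of all tested genes were, and 4 were lower, where 19.6% of all tested genes were. Without knockdown C, or without WT A, 5 genes were higher. The 12 called genes make 34.3% of the 35, below the 40.1% called among all tested genes. The median log2 fold change of the 35 was 0.11, with an interquartile range of -0.09 to 0.24, beside 0.01 for all genes tested. The log2 fold change was positive for 24 of the 35 and negative for 11, a count not taken over all genes. Library values did not overlap between groups for 11 genes that were higher and 4 that were lower, against 26.7% and 24.3% of all tested genes.

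Changes were small. A log2 change within 0.2 of zero was seen for 18 of the 35 genes (51.4%), beside 32.3% of all tested genes and 40.4% of those with a mean log2 CPM above 5. A change over 1.5-fold was seen for 2 genes (5.71%), Psma5 and Psmc3ip, beside 26.4% of all tested genes and 15.1% of those above that level. The core particle had 3 higher and 2 lower genes of 14 tested (35.7% called), with a median log2 fold change of 0.10. The regulatory particle had 3 higher and 2 lower of 17 tested (29.4% called), with a median of 0.11. Both shares lie below the 40.1% called among all tested genes. For each library the median log2 CPM over the genes of a particle, centred on each gene's mean, was also taken. Its SD between libraries of the same group was 0.106 for the core and 0.0753 for the regulatory particle. These SD are of single libraries and not of fold changes, so they give no error for the 2 medians, which were not tested. The core median was 0.03 without WT A, 0.17 without knockdown B, 0.17 without WT B and 0.26 with library totals. The regulatory median was 0.18 without knockdown A and 0.28 with library totals.

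**Figure D1:**
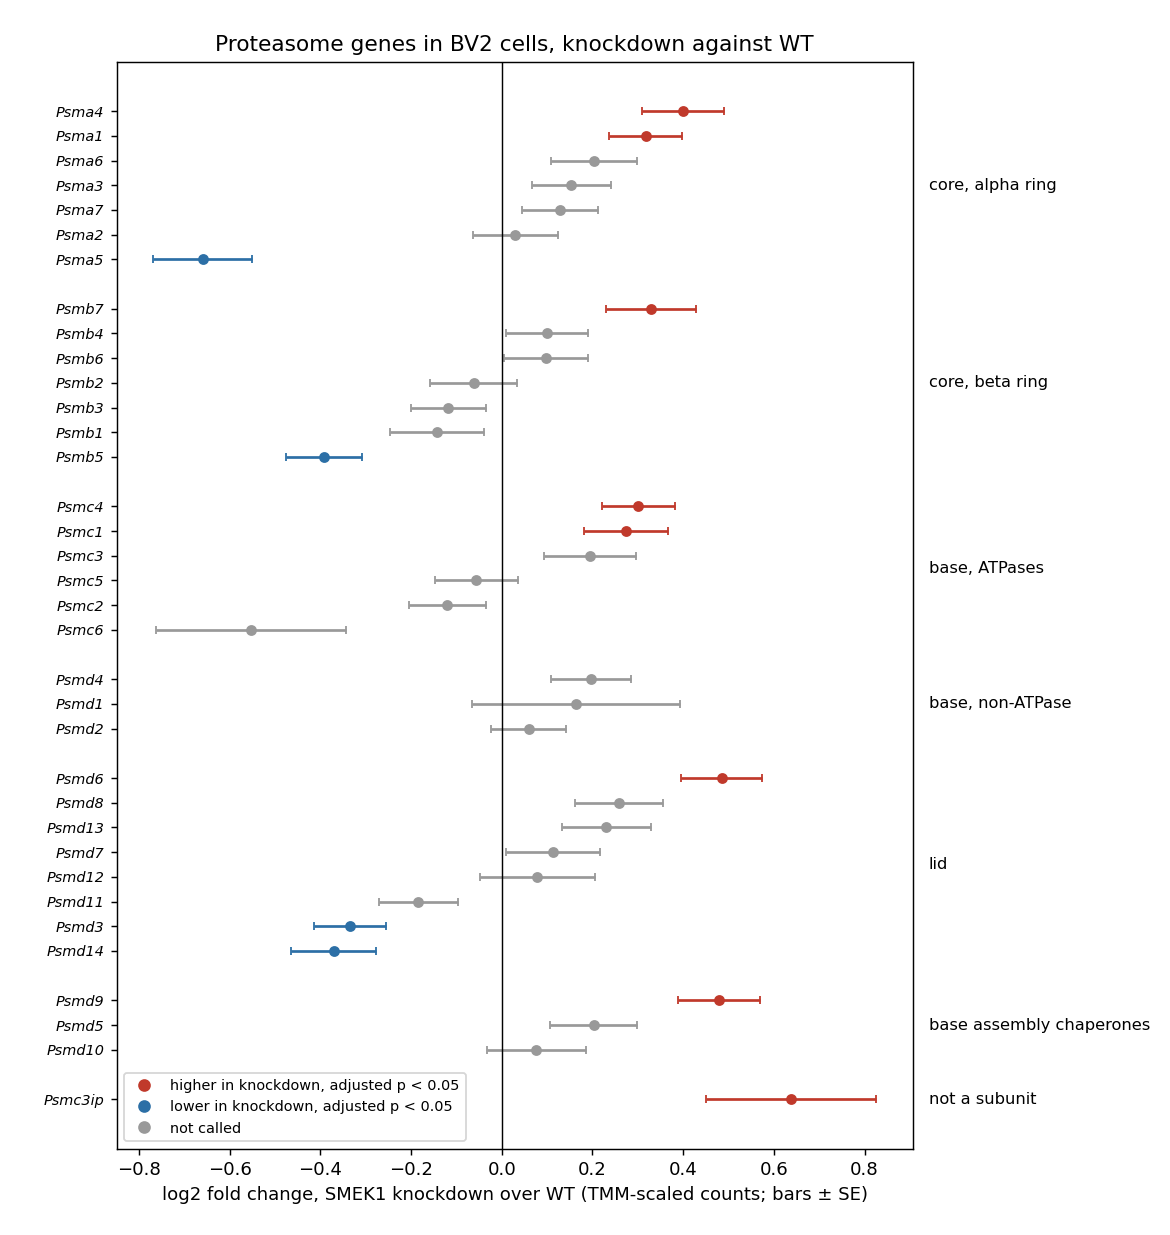
The log2 fold change (SMEK1 knockdown over WT, TMM-scaled counts) of each of the 35 tested genes is plotted by place in the proteasome, with bars of ± SE; red genes were called higher, blue genes lower and grey genes neither. Every ring or subcomplex with a called gene in blue also holds one in red, and the points run from -0.66 for Psma5 to 0.64 for Psmc3ip.

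In the alpha ring, 2 of 7 tested genes rose and 1 fell, or 42.9% called, near the 40.1% among all tested genes. Psma4 encodes the alpha3 subunit and had 91.8, 108.7 and 112.7 CPM in knockdown libraries A, B and C, against 74.5, 81.5 and 81.6 CPM in WT libraries A, B and C. Every knockdown library was above every WT library. The log2 fold change came to 0.40 (SE 0.09, adjusted p = 0.00456). Psma1, the alpha6 subunit, had 95.8, 97.6 and 110.8 CPM in knockdown libraries and 81.2, 79.3 and 83.8 CPM in WT libraries. The groups did not overlap, and knockdown C stood highest. The log2 fold change of Psma1 was 0.32 (SE 0.08, adjusted p = 0.00864), and without knockdown C its adjusted p was 0.0613.

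Psma5, the alpha5 subunit, moved the other way and had the largest fall among the 35 genes. It had 101.4, 89.9 and 113.1 CPM in knockdown libraries and 137.6, 175.3 and 168.1 CPM in WT libraries. The lowest WT library was above the highest knockdown library. Its log2 fold change was -0.66 (SE 0.11, adjusted p = 0.000556). As a share of all alpha-ring counts, which does not depend on how libraries are scaled, Psma5 made up 7.68 ± 0.53% in knockdown libraries and 12.9 ± 0.63% in WT libraries (SD, n = 3 each). Psma7, the alpha4 subunit, held the largest share, 45.1 ± 0.11% in knockdown libraries and 43.7 ± 1.18% in WT libraries. The uncalled alpha genes Psma2, Psma3, Psma6 and Psma7 had log2 fold changes of 0.03 to 0.20.

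The beta ring carries the active sites, and the 3 genes that encode them differed in direction. Psmb5, the chymotrypsin-like subunit and the target of proteasome inhibitor drugs, had 542.6, 543.7 and 605.7 CPM in knockdown libraries and 722.7, 784.8 and 712.5 CPM in WT libraries. All knockdown libraries were below all WT libraries. The log2 fold change of Psmb5 was -0.39 (SE 0.08, adjusted p = 0.00304). It made up 15.7 ± 0.55% of beta-ring counts in knockdown libraries and 20.2 ± 0.97% in WT libraries.

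Psmb7, the trypsin-like subunit, had 352.1, 330.4 and 382.7 CPM in knockdown libraries and 246.2, 313.7 and 287.8 CPM in WT libraries. The groups did not overlap, with WT A well below the other libraries. Its log2 fold change was 0.33 (SE 0.10, adjusted p = 0.0197). This call was lost without knockdown C (adjusted p = 0.0779), without WT A (0.0633) or without WT C (0.063). Reads of Psmb7 and of Nek6 on the opposite strand cannot be told apart where they overlap, as the use of strand in counting is not given. Psmb6, the caspase-like subunit, had 978.3, 885.8 and 971.3 CPM in knockdown libraries and 800.7, 975.7 and 872.6 CPM in WT libraries. The groups overlapped, and the log2 fold change of 0.10 (SE 0.09, adjusted p = 0.427) did not pass the test. The structural subunits Psmb1, Psmb2, Psmb3 and Psmb4 were uncalled, with log2 fold changes of -0.14 to 0.10.

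By FPKM, which divides by the gene length listed with the counts, Psmb5 remained the most abundant of the 37 genes in both groups. In the authors' FPKM it averaged 621 ± 41.5 in knockdown libraries and 821 ± 42.7 in WT libraries. Psmb6 followed with 500.1 ± 34.4 and 470.2 ± 46.0 FPKM, and Psmb4 with 399.9 ± 29.0 and 375.5 ± 31.6 FPKM. The Psmb4 and Psmb6 values do not differ between the groups beyond their spread. Median FPKM by subcomplex was 184 in knockdown libraries and 194 in WT libraries for the beta ring, 43.6 and 35.03 for the alpha ring, 97.5 and 91.8 for the ATPases, and 28.4 and 30.5 for the lid. By FPKM, the least abundant of the 31 tested subunits was Psmd1. It had 3.74 ± 1.33 FPKM in knockdown libraries and 3.38 ± 0.713 FPKM in WT libraries. These rankings rest on the listed lengths, such as 899 for Psmb5, 1872 for Psmb6 and 7265 for Psmd1. Without division by length, Psmb6 was highest of the 37 genes, at 945 CPM in knockdown libraries and 883 CPM in WT libraries. Psmb5 averaged 564 and 740 CPM. In knockdown libraries Psmc6 was then the lowest subunit, at 20.6 CPM beside 27.6 CPM for Psmd1.

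Among the 6 ATPases of the base 2 rose and 0 fell by the edgeR test, while 1 was lower at an unadjusted p under 0.05 and 1 by DESeq2, in both cases Psmc6. The 2 that rose make 33.3% of the 6, beside 40.1% called among all tested genes. Psmc4, which encodes Rpt3, had 204, 185 and 191.9 CPM in knockdown libraries and 145.2, 167.1 and 159.1 CPM in WT libraries. Every knockdown library exceeded every WT library, and its log2 fold change reached 0.30 (SE 0.08, adjusted p = 0.0115). Psmc1, which encodes Rpt2, had 298.3, 305 and 323.4 CPM in knockdown libraries and 224.1, 282.6 and 260.2 CPM in WT libraries. The groups did not overlap, but WT B came close to the knockdown libraries. Its log2 fold change was 0.27 (SE 0.09, adjusted p = 0.0342). The call on Psmc1 was lost without knockdown C (adjusted p = 0.102), WT A (0.116) or WT C (0.0948), and in limma on the authors' FPKM (0.06).

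Psmc6, which encodes Rpt4, had the largest log2 fold change among uncalled genes. It had 15.6, 26.7 and 19.4 CPM in knockdown libraries and 39.5, 23.5 and 27.6 CPM in WT libraries. Knockdown B was above WT B, so the groups overlapped. At a log2 fold change of -0.55 (SE 0.21) its adjusted p was 0.0539. Leaving out knockdown B gave 0.00642 and leaving out WT B gave 0.019, and on all libraries DESeq2 gave 0.0138, DESeq2 size factors in edgeR 0.0406, protein-coding genes alone 0.0498, and genes with 1 count in any library 0.000606. The remaining ATPase genes Psmc2, Psmc3 and Psmc5 had log2 fold changes of -0.12, 0.19 and -0.06. Of the non-ATPase base genes 0 of 3 passed the edgeR test, 1 (Psmd4) had an unadjusted p under 0.05, and DESeq2 and limma-voom each called 0. Psmd1 and Psmd2, the scaffold subunits, stood at 0.16 and 0.06, and Psmd4, a ubiquitin receptor, at 0.20. Knockdown libraries of Psmd4 lay above the WT libraries, and its adjusted p of 0.0936 became 0.0438 if knockdown B was left out and 0.0487 if WT B was. It was 0.0227 with upper-quartile scaling, 0.000882 with library totals and 0.0256 with genes of 1 count in any library.

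In the lid, 1 of 8 genes rose and 2 fell, or 37.5% called, near the 40.1% among all tested genes. Psmd6, which encodes Rpn7, had 68.3, 82.6 and 78.9 CPM in knockdown libraries and 52.5, 55.9 and 55.9 CPM in WT libraries. The groups were apart, and its log2 fold change reached 0.48 (SE 0.09, adjusted p = 0.00122). Psmd3, which encodes Rpn3, had 161.1, 141.3 and 144.7 CPM in knockdown libraries and 181.2, 190.1 and 192.4 CPM in WT libraries. All WT libraries were above all knockdown libraries, and its log2 fold change reached -0.33 (SE 0.08, adjusted p = 0.00556).

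Psmd14 encodes Rpn11, the deubiquitinase of the lid. It had 44.8, 56.0 and 51.6 CPM in knockdown libraries and 65.3, 64.6 and 67.3 CPM in WT libraries. The WT libraries were close to one another and all above the knockdown libraries. The fall of Psmd14 was -0.37 on the log2 scale (SE 0.09, adjusted p = 0.00833), and with libraries scaled by their totals the call was lost (adjusted p = 0.13). Within lid counts, Psmd14 made up 3.21 ± 0.49% in knockdown libraries and 4.54 ± 0.39% in WT libraries, and Psmd3 made up 9.37 ± 0.34% and 12.97 ± 0.75%. Psmd8, which encodes Rpn12, held the largest lid share, 53.1 ± 2.3% in knockdown libraries and 48.6 ± 1.0% in WT libraries.

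The uncalled lid genes include several near the threshold. Psmd8 had a log2 fold change of 0.26 with an adjusted p of 0.0514, which became 0.0108 if knockdown B was left out and 0.0289 if WT B was. Psmd13, which encodes Rpn9, had 0.23 with an adjusted p of 0.0814, or 0.0196 without knockdown B. Psmd13 overlaps Sirt3 on the opposite strand, which had a log2 fold change of 0.65 and 2626 counts in all, beside 17035 for Psmd13. The part of Sirt3 reads in the value of Psmd13 was not tested. Psmd11, which encodes Rpn6, stood at -0.18 with an adjusted p of 0.112, or 0.0414 without WT A. With all libraries kept, Psmd8 was also called by DESeq2 (0.0382), by limma-voom (0.0444), with upper-quartile scaling (0.0126), with library totals (0.00064), among protein-coding genes alone (0.0402), and with the filters of 1 CPM in 3 libraries (0.0462) or 1 count in any library (0.00259). Psmd13 was called with upper-quartile scaling (0.0267), library totals (0.00178) and the filter of 1 count in any library (0.0109). Whether these genes pass the threshold thus turned on the libraries included and, for Psmd8 and Psmd13, on the method as well. Psmd7 and Psmd12, which encode Rpn8 and Rpn5, had log2 fold changes of 0.11 and 0.08.

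Of the base chaperones, Psmd9 rose. Psmd9 had 115, 102.1 and 112.5 CPM in knockdown libraries and 71.0, 86.6 and 79.1 CPM in WT libraries. The lowest knockdown library was above the highest WT library, and its log2 fold change reached 0.48 (SE 0.09, adjusted p = 0.00138). The chaperones Psmd5 and Psmd10 (gankyrin) had log2 fold changes of 0.20 and 0.08 and were not called. Psmc3ip had 13.01, 11.7 and 11.9 CPM in knockdown libraries and 5.72, 8.65 and 9.18 CPM in WT libraries. The groups did not overlap, and WT A was lowest. Its log2 fold change was 0.64 (SE 0.19, adjusted p = 0.0179), and without WT A the adjusted p was 0.0551. Psmc3ip overlaps Mlx on the opposite strand, which had more counts and a log2 fold change of -0.53.

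**Figure D2:**
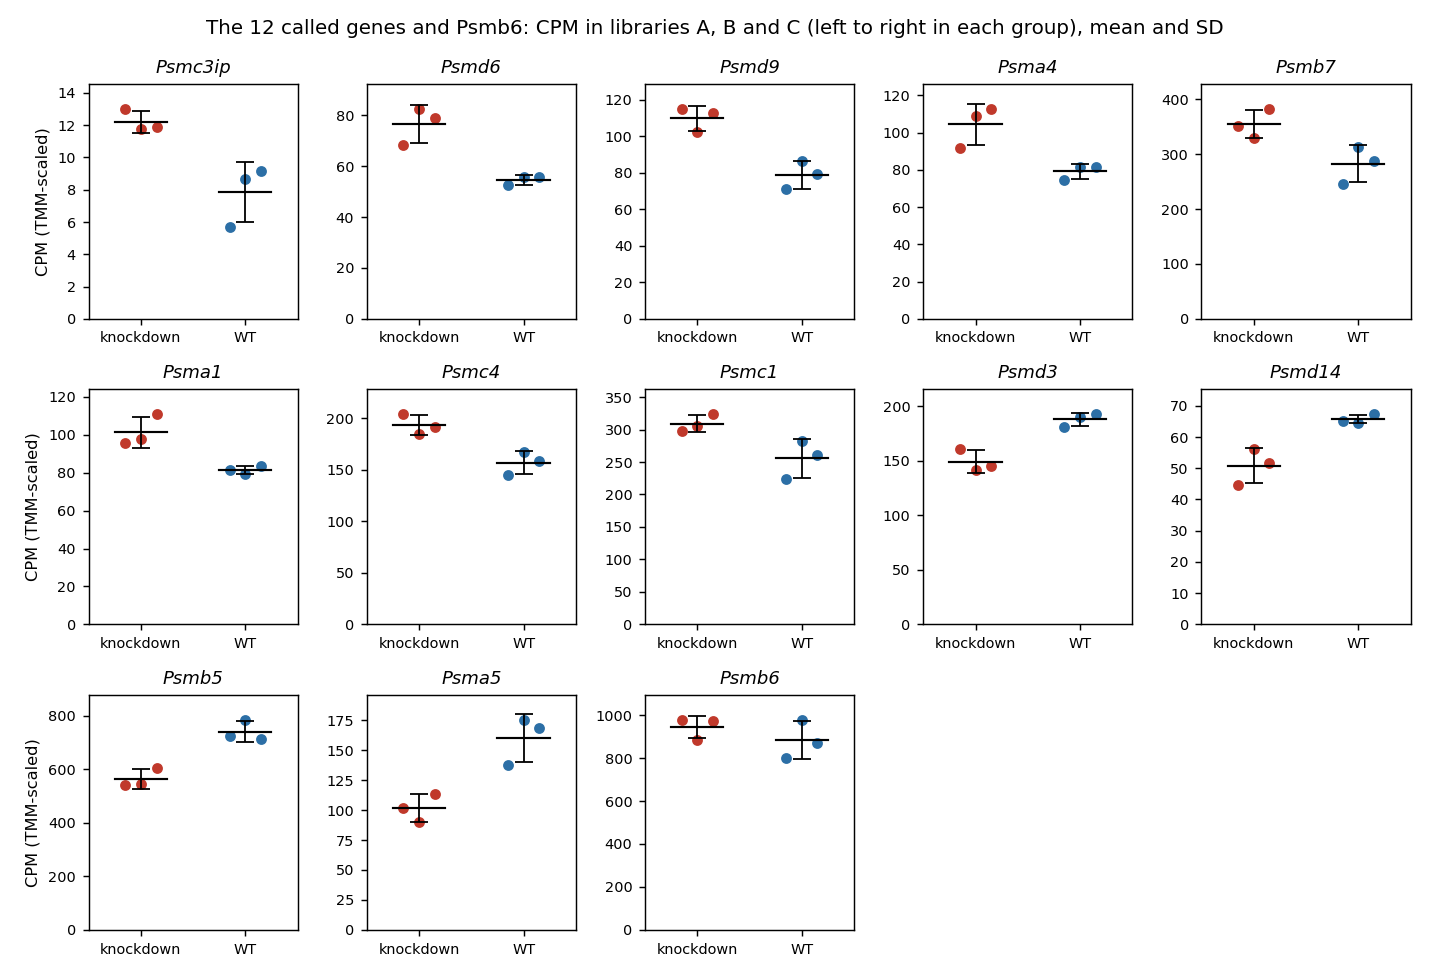
TMM-scaled CPM on the vertical axis is plotted for each library, knockdown (red) left of WT (blue), with libraries A, B and C from left to right, and with the mean and SD in black. In each of the 12 called genes the groups do not overlap, while in Psmb6 they do.

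All 23 uncalled genes had log2 fold changes between -0.55 and 0.26, with SE of 0.08 to 0.23. Their groups overlapped in 20 genes and not in Psma6, Psmd4 and Psmd8. Psmd1 showed the widest spread: 18.3, 38.6 and 25.8 CPM in knockdown libraries and 30.2, 20.1 and 23.5 CPM in WT libraries. Its groups covered much the same range.

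Libraries of the same group also differed over the proteasome genes. WT A was the lowest WT library in 28 of the 35 genes and the highest in 3, and WT B was the highest in 24. Knockdown C was the highest knockdown library in 19 and the lowest in 0. Knockdown A was the highest in 11 and the lowest in 14, and knockdown B the highest in 5 and the lowest in 21. Such ranks were not taken over all tested genes, so they cannot be read as particular to the proteasome. Summed over the 37 genes, CPM was 8758, 8301 and 9058 in knockdown libraries and 7618, 8982 and 8390 in WT libraries. These sums overlapped. As a raw share of all counts the genes made up 0.900%, 0.907% and 0.949% in knockdown libraries and 0.755%, 0.814% and 0.790% in WT libraries, without overlap. TMM factors, by which the CPM differ from the raw shares, were 1.028 to 1.094 in knockdown libraries and 0.907 to 0.991 in WT libraries.

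The number of genes called higher depended on how libraries were scaled. With library totals in place of TMM, 21 of the 35 genes were higher and 3 lower, against 31.7% and 12.8% of all tested genes, and the median of all tested genes was 0.17 in place of 0.01. The share of all calls that were higher was 71.3% with library totals and 51.1% with TMM. The median of the 35 genes was then 0.28, which is 0.11 above that of all genes, as it was 0.10 above it with TMM. Psma4, Psmd6 and Psmd9 as higher and Psma5, Psmb5 and Psmd3 as lower kept their calls in every alternative at an adjusted p under 0.05 that set no minimum fold change.

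**Figure D3:**
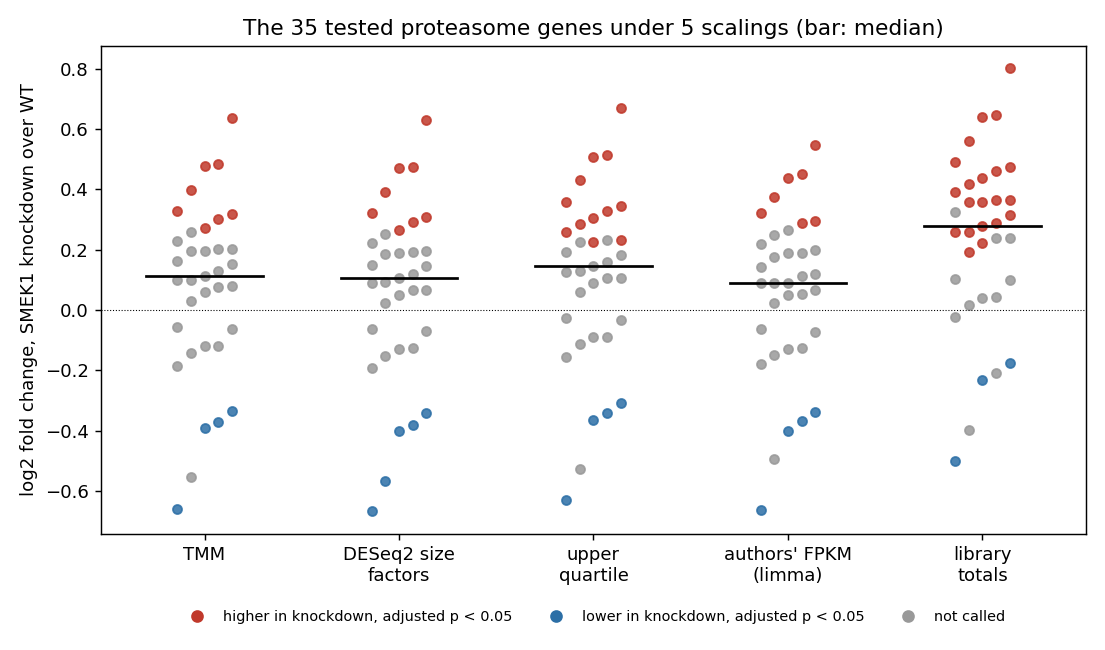
Log2 fold changes (SMEK1 knockdown over WT, vertical axis) of the 35 tested genes are plotted under 5 scalings of the libraries, each point a gene and each bar the median. The median is 0.11 with TMM and 0.28 with library totals, and the genes called lower stay below 0 in each column.

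The 35 tested genes lie on many chromosomes, which themselves differed in median. Genes on chromosome 14 had a median log2 fold change of -0.32 (315 genes) and those on chromosome 16 a median of 0.38 (304 genes), using genes with a mean log2 CPM above 2. Psmb5 lies at chr14:54614119-54618022 of GRCm38, where the surrounding 10 Mb bin of 76 genes had a median of -0.34, beside -0.39 for Psmb5 itself. Psmc6 at chr14:45329788-45349705 had a bin median of -0.33 (24 genes). Psmd6 at chr14:14112174-14120984, which rose, had a bin median of 0.01 (12 genes), and Psma5 at chr3:108256926-108279974, which fell by 0.66, had a bin median of -0.07 (57 genes). On chromosome 16 lies Psmd2 alone of the 37 genes, with a log2 fold change of 0.06 (not called) in a bin with a median of 0.28 (37 genes). Psmb5 was thus close to the median of its neighbours, while Psmd6, Psma5 and Psmd2 were further from theirs. The part of chromosomal position in these changes was not tested.

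Promoters were examined for motifs of factors known to drive proteasome genes. The transcription factor NRF1, encoded by Nfe2l1, raises proteasome transcripts when proteasome activity is limiting, and binds antioxidant response elements. The core of that element, TGACNNNGC, was searched on both strands in the 250 bases before the RefSeq start of each gene (RefSeq, GRCm38.p6), for which 30 of the 37 genes had a window. The core was found in Psmb5, Psmb6, Psmc6, Psmd12 and Psmd9, that is 16.7% of the 30 genes. It was found in 10.2% of the 32851 windows of all genes and 11.7% of the 11466 windows of tested genes. The first share counts genes with a match in any window and the others count windows, so they are not the same measure. The CCAAT box, CCAAT on either strand, was found in 43.3% of the 30 genes, 33.8% of all windows and 35.4% of those of tested genes. The ETS site CCGGAAG was found in 33.3%, 6.91% and 14.4%. Psmc3ip, which is no subunit, is among the 30 genes and matched both the CCAAT box and the ETS site. A match is a run of letters, not a bound site.

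The windows of Psmb5, Psmb6 and Psmd9 are printed because the same antioxidant element core, in capitals, precedes a gene that fell, a gene that was not called and a gene that rose. They read 5′ to 3′ on the strand of the gene, for Psmb5 from chr14:54618023-54618245 on the minus strand, cut where the gene of the count table begins, for Psmb6 from chr11:70525107-70525356 on the plus strand, and for Psmd9 from chr5:123227940-123228189 on the plus strand. The count table places the start of Psmd9 further upstream, so its window lies inside the gene as counted.
Psmb5: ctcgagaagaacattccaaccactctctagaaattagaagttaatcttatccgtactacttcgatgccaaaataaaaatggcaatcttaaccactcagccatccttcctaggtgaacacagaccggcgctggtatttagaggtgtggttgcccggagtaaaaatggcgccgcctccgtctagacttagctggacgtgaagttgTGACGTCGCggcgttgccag
Psmb6: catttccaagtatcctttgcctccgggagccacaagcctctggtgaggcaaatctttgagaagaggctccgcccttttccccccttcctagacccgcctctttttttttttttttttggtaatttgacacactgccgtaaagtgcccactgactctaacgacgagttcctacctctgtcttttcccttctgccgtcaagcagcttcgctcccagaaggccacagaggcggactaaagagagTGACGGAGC
Psmd9: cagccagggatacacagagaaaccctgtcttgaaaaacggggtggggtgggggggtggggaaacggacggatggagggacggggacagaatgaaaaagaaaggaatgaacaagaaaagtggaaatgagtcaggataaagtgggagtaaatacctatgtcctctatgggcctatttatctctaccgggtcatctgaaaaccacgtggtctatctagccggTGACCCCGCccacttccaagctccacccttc
Beside these windows, the log2 fold changes were -0.39 for Psmb5, 0.10 for Psmb6 and 0.48 for Psmd9. The other genes with a match, Psmc6 and Psmd12, stood at -0.55 and 0.08, both uncalled.

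The interferon-inducible subunits that replace the catalytic ones were set against them. Psmb8 replaces Psmb5, and the ratio of their counts was 0.336, 0.317 and 0.306 in knockdown libraries and 0.222, 0.228 and 0.240 in WT libraries. Every knockdown library had the higher ratio, 1.39 times that of WT on average and 1.35 to 1.42 times when any library was left out. Psmb8 itself was not called (log2 fold change 0.08, adjusted p = 0.427), while Psmb5 was called lower. The ratio of Psmb10 to Psmb7 was 0.615 ± 0.030 in knockdown libraries and 0.717 ± 0.068 in WT libraries, without overlap, and that of Psmb9 to Psmb6 was 0.0537 ± 0.0011 and 0.0480 ± 0.0043, with overlap (SD, n = 3 each). Counts are not divided by length in these ratios, which compare libraries and not the 2 genes, and they were given no test because they were chosen with the counts known. Psmb9 was called higher (0.27, adjusted p = 0.032), which was lost without knockdown A (0.0567), knockdown C (0.0951), WT A (0.0577) or WT C (0.156). DESeq2 gave 0.054.

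**Figure D4:**
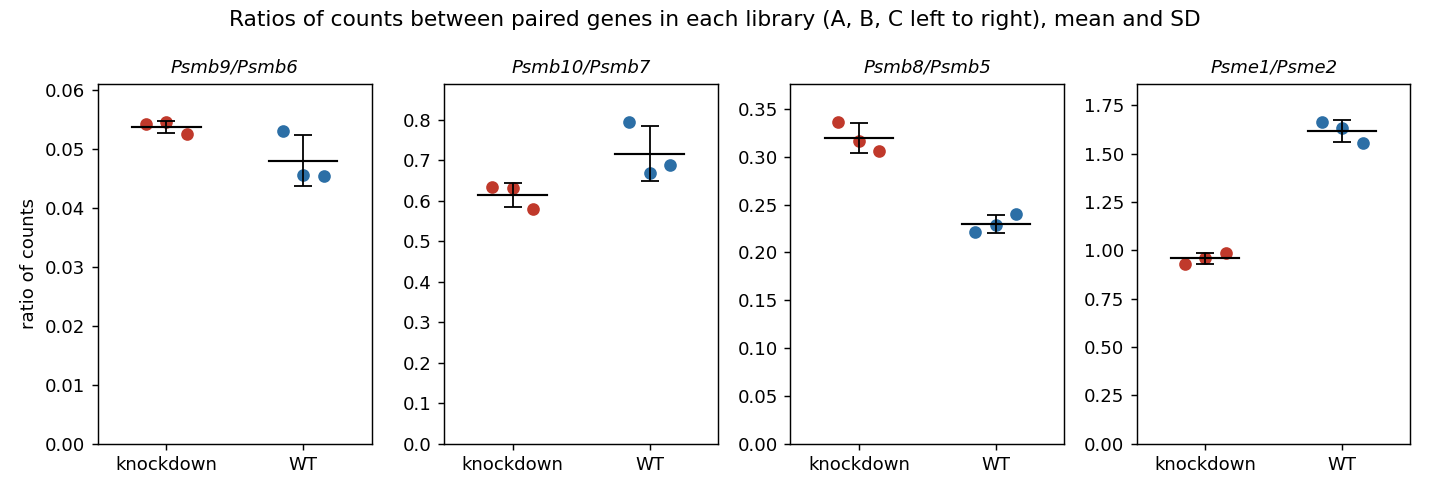
Ratios of raw counts between paired genes are plotted for each library (vertical axes from 0, knockdown in red left of WT in blue, libraries A, B and C from left to right, mean and SD in black). Psmb8 over Psmb5 is 0.306 to 0.336 in knockdown libraries and 0.222 to 0.240 in WT libraries, and Psme1 over Psme2 is lower in the knockdown.

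The activators that cap the core in place of the regulatory particle all fell, and 3 of them had larger changes than any subunit. Among all tested genes 19.6% were called lower. Psme1 and Psme2 form one heteromeric cap, Psme3 forms a nuclear one, and Psme4 is a large single-chain activator. Psme1 averaged 127 ± 7.35 CPM in knockdown libraries and 281 ± 31.6 CPM in WT libraries (SD, n = 3 each), a log2 fold change of -1.15 (adjusted p = 3.46e-06). Psme3 averaged 57.6 ± 2.03 CPM and 148.6 ± 14.4 CPM, a log2 fold change of -1.37 (adjusted p = 5.04e-07). Psme2 (-0.40, adjusted p = 0.0073) and Psme4 (-1.004, adjusted p = 0.00895) fell as well. The ratio of Psme1 to Psme2 counts was 0.958 ± 0.028 in knockdown libraries and 1.62 ± 0.056 in WT libraries, so the partners of one cap did not fall alike. Both partners lie on chromosome 14, whose median is given above, in the same 10 Mb bin as Psmb5. That bin had a median of -0.34 (76 genes), beside -1.15 for Psme1 and -0.40 for Psme2. The part of position in their fall was not tested. The inhibitor Psmf1 was called higher (0.28, adjusted p = 0.044), and without any one of knockdown A, knockdown C, WT A, WT B or WT C its adjusted p was 0.067 to 0.113, and with DESeq2 it was 0.0597.

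Of the 5 chaperones that assemble the core, 4 rose (80%), beside 20.5% of all tested genes called higher. Psmg1 and Psmg2, partners in alpha-ring assembly, had log2 fold changes of 0.56 (adjusted p = 0.000991) and 0.59 (adjusted p = 0.00103). Psmg3 had 0.39 (adjusted p = 0.00925, or 0.0507 without knockdown C) and Pomp, which acts in beta-ring maturation, 0.24 (adjusted p = 0.0483). The call on Pomp was lost without knockdown A (0.067), knockdown C (0.169), WT A (0.156) or WT C (0.123). DESeq2 gave 0.0588. Psmg4 was not called (0.10, adjusted p = 0.47). Psmg1 lies on chromosome 16, whose median was 0.38.

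Of 13 genes for proteins that associate with the proteasome, 4 rose and 1 fell, or 38.5% called, a share near the 40.1% among all tested genes. Adrm1, the ubiquitin receptor Rpn13, rose by 0.37 on the log2 scale (adjusted p = 0.0022), and Txnl1, a thioredoxin-like protein bound to the regulatory particle, rose by 0.50 (adjusted p = 0.000812). Akirin2, which takes part in nuclear import of proteasomes, and Zfand5, an activator, had log2 fold changes of 0.48 (adjusted p = 0.00758) and 0.39 (adjusted p = 0.00482). The shuttle factor Ubqln1 fell by 0.29 (adjusted p = 0.0162), but leaving out knockdown C gave 0.0744, leaving out WT C 0.088 and scaling by library totals 0.258. The deubiquitinases Usp14 and Uchl5 stood at -0.24 and -0.22, uncalled.

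In the NRF1 pathway, 1 of 7 genes was called, or 14.3%, beside 40.1% of all tested genes. Nfe2l1 itself had 249.8, 228.2 and 228.8 CPM in knockdown libraries and 177.6, 191.5 and 184.1 CPM in WT libraries. The groups did not overlap, and the rise of Nfe2l1 was 0.35 on the log2 scale (SE 0.08, adjusted p = 0.00329). The protease gene Ddi2 and the deglycosylase gene Ngly1, whose products process NRF1, stood at -0.14 and 0.39, both uncalled. Of 5 genes for ubiquitin and its activating enzymes, 2 fell, or 40% called, again near 40.1%. Uba1, the main activating enzyme, fell by 0.37 (adjusted p = 0.00369), and Uba6, an alternative activating enzyme at 1.65 ± 0.356 CPM in knockdown libraries and 3.87 ± 1.23 CPM in WT libraries, by 1.23 (adjusted p = 0.00624).

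**Figure D5:**
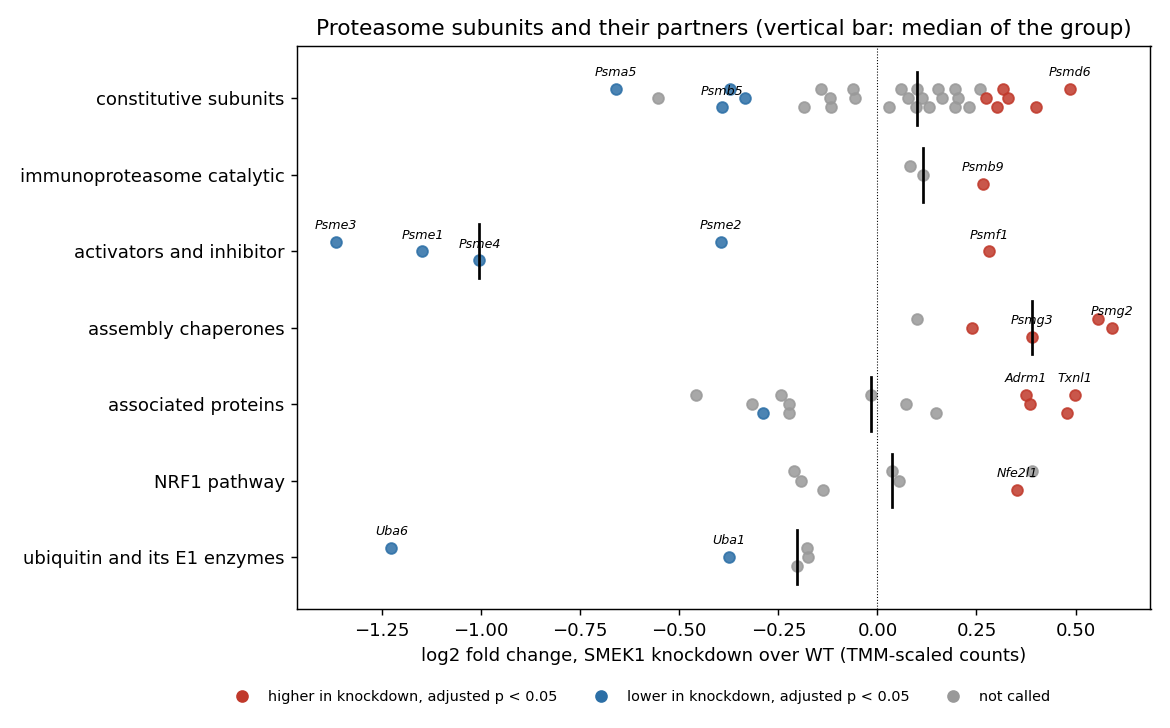
Log2 fold changes (SMEK1 knockdown over WT) of the 31 tested constitutive subunits are plotted above those of their partners, each point a gene and each vertical bar a median. The subunits run from -0.66 to 0.48, while Psme1 and Psme3 lie below -1 and the assembly chaperones lie above 0.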

How the data were processed

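RNA was sequenced from 3 SMEK1 knockdown and 3 WT libraries of BV2 cells, prepared with the SMARTER mRNA-Seq kit from 1.3 µg of RNA per the labels. The authors deposited whole-number counts per gene and FPKM values; the build was GRCm38 (mm10), per the submitters' processing notes. The aligner, counting program and its use of strand were not given in the sources used here. Deposited FPKM by the authors are counts over gene length and a library constant, 1.022 to 1.122 times the total counts in knockdown libraries and 0.911 to 0.991 times in WT libraries.

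The test was edgeR 4.0.16 under R 4.3.3 on counts (filterByExpr, TMM, glmQLFit and glmQLFTest, no covariates), which kept 12269 genes, and p-values were adjusted by Benjamini-Hochberg over all of them. SE is the size of the log2 fold change over the square root of the F statistic, an approximation. CPM are TMM-scaled. The biological coefficient of variation was 0.121. The scripts were tested on simulated data. Alternatives were other scalings and filters, DESeq2 1.42.0, limma 3.58.1 (voom, and log2 of FPKM plus 1 or 0.1, where mean FPKM reached 0.5), a replicate block, only protein-coding genes, a 1.5-fold change, an adjusted p of 0.01, and leaving out each library. Values of every library are given for the called proteasome genes (12 largest changes at most) and the catalytic genes; other proteasome genes are named by ranges, and partner genes where called. Outside this rule, values per library of Psmc6, Psmd1 and Nfe2l1, and uncalled partners, were chosen after their values were seen. The members, lists and tests were chosen with earlier results of these data known. Some partner genes are not reported here.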

Additional observations from a re-analysis of the deposited data

How the results depend on the processing

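Of the 12 calls, 6 (Psma4, Psmd6, Psmd9, Psma5, Psmb5, Psmd3) held in every alternative at an adjusted p under 0.05 that set no minimum fold change. The 8 higher genes became 21 with library totals, 14 with genes of at least 1 count in any library, 4 at an adjusted p under 0.01, 1 at a change of at least 1.5-fold, and 5 to 11 when 1 library was left out (5 without knockdown C or WT A, 11 without knockdown B). The 4 lower genes became 1 at 1.5-fold and were 4 to 5 when 1 library was left out. Among all genes tested, 4918 calls became 3181 at 0.01 and 2642 at 1.5-fold. The medians of the core and the regulatory particle were 0.26 and 0.28 with library totals, and 0.03 to 0.17 and 0.09 to 0.18 when 1 library was left out. Uncalled genes changed sign with library totals: Psmb1 to 0.0181, Psmb2 to 0.0989, Psmb3 to 0.0416, Psmc2 to 0.0422 and Psmc5 to 0.10. With 1 library left out, log2 fold changes of uncalled genes ran from -0.0585 to 0.103 for Psma2, -0.141 to 0.00847 for Psmb2, -0.132 to 0.0289 for Psmc5, -0.00911 to 0.106 for Psmd2, -0.138 to 0.385 for Psmd1, -0.0501 to 0.204 for Psmd12 and -0.00862 to 0.199 for Psmd7. The cause of these changes was not tested. Libraries of the same letter did not deviate together (correlations of -0.361, -0.326 and 0.0025). Knockdown A deviated most like WT B, and knockdown B most like WT A. Deviations from a mean of 3 libraries are not independent, so these correlations cannot exclude a shared origin of libraries. What the letters stand for was not given. A replicate block kept 8 of the 12 calls, with 4 genes higher and 3326 genes called over all, and lost Psmb7 (0.0657), Psmc1 (0.0838), Psmc4 (0.0656) and Psmc3ip (0.0591). With 3 libraries a group, an exact permutation test cannot go below 0.10.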

Other observations

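Genes of the COP9 signalosome and of the CCT chaperonin were also called in both directions, at 40% and 25% called. Of 10 genes of the COP9 signalosome, which shares its architecture with the lid, Cops6 (log2 fold change 0.34, edgeR adjusted p = 0.0152) and Cops8 (0.86, adjusted p = 2.94e-05) rose, and Cops3 (-0.57, adjusted p = 0.000539) and Cops9 (-0.39, adjusted p = 0.00318) fell, with a median of 0.08. The call on Cops6 was lost without knockdown C (0.0552). Cops8 averaged 145.8 ± 10.0 CPM in knockdown libraries and 80.1 ± 8.54 CPM in WT libraries (SD, n = 3 each). Of 8 genes of the CCT chaperonin, which folds actin and tubulin in a double ring, Cct6a rose (0.55, adjusted p = 0.00135) and Tcp1 fell (-0.46, adjusted p = 0.00425), with a median of 0.02. With library totals Tcp1 was not called (0.0691). Of all genes tested, 40.1% were called.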
